A study of Mus musculus with 24 samples.

Results

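The genes described here are 9 genes of the response to feeding and fasting that act downstream of insulin, the FOXO transcription factors and the PPAR nuclear receptors: Foxo1, Foxo3, Irs2, Pik3ip1, Txnip, Pdk4, Angptl4, Cpt1a and Ucp2. They were listed by name, with no threshold on a measured value but with earlier results of these data known, and each of the 9 matched a single row of the 53465 genes listed. All 9 were among the 15493 genes that were tested, those reaching 5 normalised reads in 6 mice of a genotype. Endothelial cells, which line the blood vessels, were sorted by CD31 from the brains of single C57BL/6J mice of both sexes, and 1 library was made from each mouse. The controls were Bmal1fl/fl mice, which carry the floxed clock gene without Cre, and the mutants were Bmal1fl/fl; Tie2cre mice, in which the Tie2 (Tek) promoter of endothelial and blood cells drives the Cre that cuts the floxed Bmal1 exon. Collection every 4 h from ZT2 to ZT22 gave 6 times with 2 mice of each genotype, or 12 mice per genotype. ZT is zeitgeber time, the hours since lights on in a 12 h light and 12 h dark cycle, so ZT2, ZT6 and ZT10 are in the light phase and the others in the dark phase. Food was available at all times, and these samples hold no fasted or refed group, so time of day stands here for the daily pattern of feeding and cannot be told apart from light or from any other daily signal.

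After a meal, insulin activates PI3K and the kinase AKT, which phosphorylates the FOXO factors and keeps them out of the nucleus. When insulin is low, FOXO factors enter the nucleus and switch on genes that spare glucose and raise insulin sensitivity, such as Irs2 and Pdk4. At the same time fatty acids freed from fat stores bind the PPAR receptors, which switch on genes of fatty acid use, such as Cpt1a, Pdk4 and Angptl4. Mice eat mostly in the dark phase and rest in the light phase. In endothelium, FOXO1 is known to restrain proliferation and metabolic activity.

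The promoters were searched for the letters of known binding motifs. Of the 9 genes, 8 had an entry in the RefSeq promoter table (GRCm38.p6), and Angptl4 had none. The windows searched were the 250 bases before the RefSeq start and 50 bases after it, on both strands. The coordinates given with each gene are those of GENCODE on the same build, whose starts can differ from RefSeq. The Irs2 window lies wholly upstream of its GENCODE gene, and the Cpt1a and Pik3ip1 windows lie inside theirs. The E-box CACGTG, the motif of CLOCK and BMAL1, was present in 1 of the 8 (Irs2), against 7.15% of 32851 promoters of all genes. The FOXO consensus GTAAACA was present in 1 of the 8 (Txnip), against 3.65% of all. The PPAR-RXR direct repeat of AGGTCA and the glucocorticoid receptor palindrome were present in none of the 8, against 0.0396% and 0.00913% of all. The 250 bases upstream of the start are printed for both genes with a match, 5′ to 3′ on the strand of the gene, with the motif in capitals. They lie at chr3:96557707-96557956 on the plus strand for Txnip and at chr8:11008930-11009179 on the minus strand for Irs2, and the first base of the motif is 121 and 44 bases before the RefSeq start, respectively.
Txnip: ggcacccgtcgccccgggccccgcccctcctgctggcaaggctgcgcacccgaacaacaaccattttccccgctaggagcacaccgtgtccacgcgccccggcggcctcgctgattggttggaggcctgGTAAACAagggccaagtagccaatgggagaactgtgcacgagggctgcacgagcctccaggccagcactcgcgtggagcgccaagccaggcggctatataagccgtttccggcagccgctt
Irs2: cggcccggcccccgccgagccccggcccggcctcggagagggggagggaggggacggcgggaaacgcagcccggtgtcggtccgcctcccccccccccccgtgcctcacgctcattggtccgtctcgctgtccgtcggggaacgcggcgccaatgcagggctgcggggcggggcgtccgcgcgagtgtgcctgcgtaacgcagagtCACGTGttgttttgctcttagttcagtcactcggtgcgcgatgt
A match is a run of letters and not a measured binding site.

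The libraries had similar totals, from 6136404 to 6648311 normalised reads, because the deposited counts were brought to a common depth. Of the 10 endothelial markers, 0 were at 0 in any library, and their summed reads were 71515 to 116331 in controls and 82860 to 116756 in mutants. The targeted gene, listed as Arntl, had 1 to 468 reads in controls and 81 to 354 in mutants, so its count per gene did not mark the genotype, and the deletion removes an exon, which a count over the whole gene does not check. Nr1d1, a direct target of BMAL1, had 24 to 1765 reads in controls and 12 to 198 in mutants (log2 fold change -2.26, edgeR, adjusted p = 0.000659). The 8 libraries of ZT6 and ZT18 belong to a consecutive series of library numbers in both genotypes and had mitochondrial shares of 2.68% to 3.90%, against 5.78% to 17.4% in the other 16, and this series cannot be told apart from those times. Microglial markers summed to 1114 to 22900 reads in controls and 1218 to 26740 in mutants, pericyte and smooth muscle markers to 10679 to 22933 and 8969 to 22541, astrocyte markers to 4899 to 18650 and 4591 to 20825, and oligodendrocyte markers to 2805 to 18000 and 2210 to 12069. In cells sorted in bulk, fewer cells of a type and less RNA per cell cannot be told apart, and the labels name separate mice, so p-values measure the spread between mice.

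The 9 genes spanned a wide range of levels per kb of exon. Txnip, a brake on glucose uptake and an inhibitor of thioredoxin, was at 580 ± 148 normalised reads per kb in controls (SD, n = 12) and Ucp2, a mitochondrial carrier, at 256 ± 44.2. Txnip stood above Ucp2 in 24 of 24 mice and Ucp2 above Cpt1a in 24 of 24. Cpt1a, which brings long-chain fatty acids into mitochondria, was at 140 ± 31.7 reads per kb, Pik3ip1 at 105 ± 29.0, Foxo3 at 91.3 ± 15.9 and Foxo1 at 78.4 ± 16.9. Neighbours in that order were not separated in every mouse: Cpt1a was above Pik3ip1 in 19 of 24 mice, Pik3ip1 above Foxo3 in 13 and Foxo3 above Foxo1 in 17. Pdk4 (31.0 ± 12.6 reads per kb), Angptl4 (30.1 ± 18.7) and Irs2 (19.5 ± 10.7) formed a lower tier whose order changed from mouse to mouse, and Foxo1 was above Pdk4 in 24 of 24. The mutants had the same upper places, with Txnip at 597 ± 116 and Ucp2 at 265 ± 48.0 reads per kb, while Foxo3 at 104 ± 24.5 stood above Pik3ip1 at 92.3 ± 36.2.

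**Figure D1:**
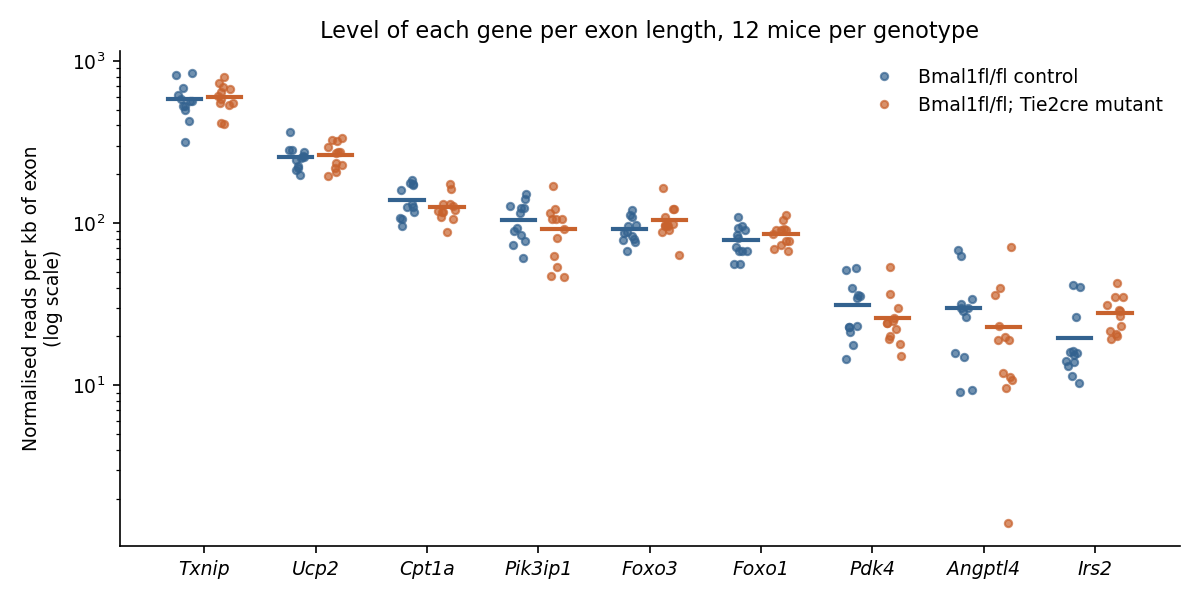
Normalised reads per kb of exon (log scale) of each gene in each mouse, with 12 Bmal1fl/fl control mice in blue and 12 Bmal1fl/fl; Tie2cre mutant mice in orange; points are spread sideways for sight only and the bars are means. Txnip and Ucp2 stand above the rest in every mouse, Pdk4, Angptl4 and Irs2 lie lowest, and 1 mutant mouse holds the lowest Angptl4 value (5 reads).

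The first comparison asked whether the level of these genes differed between genotypes over all times of day. In edgeR, with time as a factor beside genotype, 0 of the 9 genes had a Benjamini-Hochberg adjusted p-value under 0.05, and 0.271% of all genes tested did. Without adjustment, 3 of the 9 (Irs2, Foxo3 and Pik3ip1) had a p-value under 0.05, and 6.95% of all genes tested did. Over 39 alternatives that stayed so in 37 for Irs2, 22 for Pik3ip1 and 14 for Foxo3, which had p = 0.0519 by DESeq2. The 9 log2 fold changes of mutants over controls had a median of 0.04, against 0.00329 over all genes, with 5 of the 9 above 0. With DESeq2 in place of edgeR, 0 of the 9 passed as well.

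**Figure D2:**
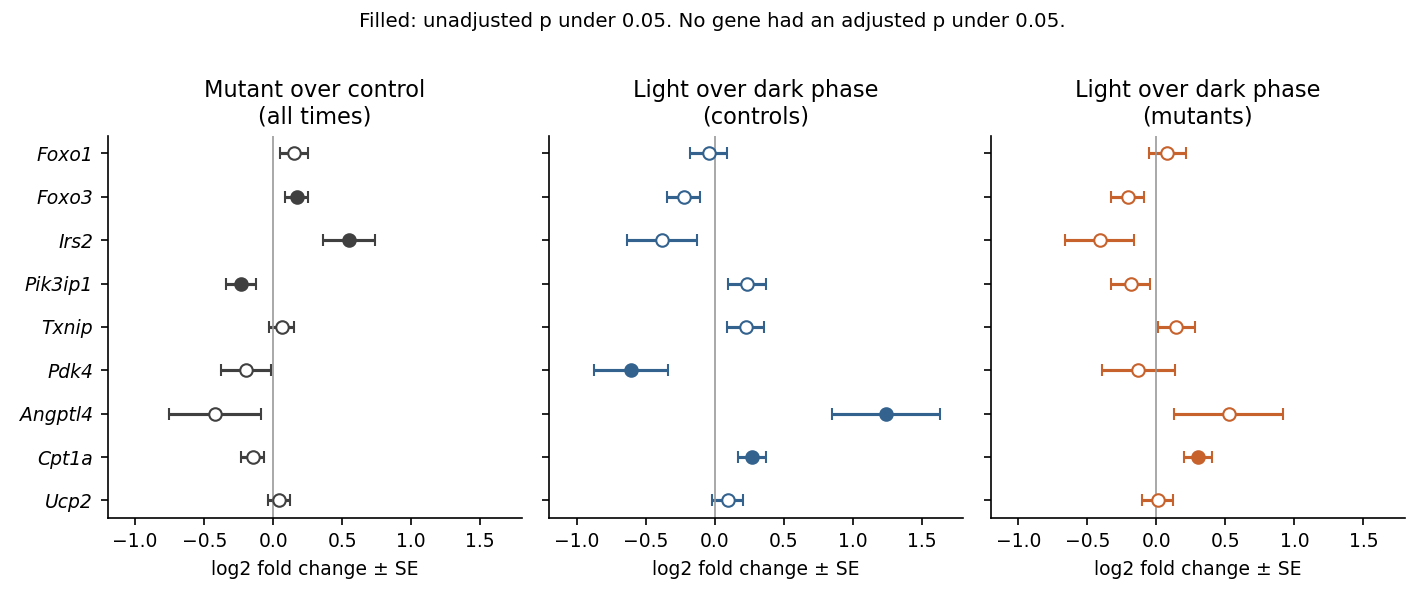
The log2 fold change with its standard error (bars) of the 9 genes for mutants over controls (left), light over dark phase in controls (middle) and light over dark phase in mutants (right); filled points have an unadjusted p-value under 0.05. Irs2 lies farthest above 0 in the genotype comparison (0.55) and Angptl4 farthest above 0 in the light phase of controls (1.24), and no point passed the adjusted threshold.

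Irs2 (ENSMUSG00000038894, chromosome 8 of GRCm38 from 10984681 to 11008458, minus strand) encodes the insulin receptor substrate through which many cells pass the insulin signal to PI3K, and FOXO factors switch it on when insulin is low. In controls it had 72 and 65 reads (ZT2), 89 and 97 (ZT6), 263 and 88 (ZT10), 83 and 101 (ZT14), 166 and 103 (ZT18) and 254 and 100 (ZT22). In mutants it had 146 and 183 reads (ZT2), 127 and 122 (ZT6), 181 and 137 (ZT10), 199 and 221 (ZT14), 131 and 168 (ZT18) and 221 and 269 (ZT22). Both mutants were above both controls at ZT2, ZT6 and ZT14, and the genotypes overlapped at the other 3 times, where 1 control mouse of each pair was high. Over the tested genes, 7.81% had both mutants above both controls at 3 or more of the 6 times, and 2 of the 9 genes here (Irs2 and Foxo3) did.

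The means of Irs2 were 123 ± 67.9 reads in controls and 175 ± 45.9 in mutants (SD, n = 12 each). The log2 fold change was 0.55 (SE 0.19, edgeR, unadjusted p = 0.00619, adjusted p = 0.398), a level 1.46 times that of controls. Controls ranged from 65 to 263 reads (median 98.5) and mutants from 122 to 269 (median 174.5). Leaving out 1 mouse at a time gave log2 fold changes of 0.49 to 0.71, the largest without the control at ZT10 with 263 reads (adjusted p = 0.0876). In the ZT6 and ZT18 libraries alone the Irs2 value was 0.31. Immediate-early genes, which respond to stress and to the isolation of cells, summed to 18469 to 65679 reads in controls (median 46234) and 24077 to 71594 in mutants (median 54706.5), 5 of the 8 had a genotype p-value under 0.05 without adjustment, all higher in mutants, and with their summed level in the fit the value for Irs2 was 0.39 (p = 0.0652). The part of these genes in the result was not tested further.

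Pik3ip1 (ENSMUSG00000034614, chromosome 11 from 3330401 to 3342971, plus strand) encodes a membrane protein that binds and inhibits PI3K. Controls had 330 and 397 reads (ZT2), 494 and 542 (ZT6), 528 and 650 (ZT10), 528 and 601 (ZT14), 363 and 383 (ZT18) and 261 and 315 (ZT22). Mutants had 198 and 203 reads (ZT2), 394 and 454 (ZT6), 453 and 521 (ZT10), 453 and 721 (ZT14), 348 and 490 (ZT18) and 269 and 228 (ZT22). Controls were highest at ZT10 and ZT14 and mutants at ZT14, both genotypes were low at ZT22 and ZT2, and both mutants were below both controls at ZT2, ZT6 and ZT10. Over the tested genes, 7.12% had both mutants below both controls at 3 or more of the 6 times, and 2 of the 9 (Pik3ip1 and Cpt1a) did. The genotype log2 fold change of Pik3ip1 was -0.23 (SE 0.11, edgeR, unadjusted p = 0.0363, adjusted p = 0.655), and it was -0.08 with the i5 index of the libraries as a covariate. Without the ZT6 and ZT18 libraries the Pik3ip1 value was -0.34, and with only those it was -0.0381.

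The second comparison asked which of the genes had a 24 h rhythm, with meta2d, the method of the study's analysis, and its threshold of q under 0.6. In controls, 1 of the 9 genes, Pik3ip1, passed that threshold, and 0.310% of all genes tested did. Its meta2d p-value was 0.000889 and its q value 0.481, the fitted cosine had a relative amplitude of 35.3% of the mean and its peak was at ZT10.4, and the highest time mean (589 reads, ZT10) was 2.05 times the lowest (288, ZT22). In mutants, 0 of the 9 passed q under 0.6, and 0.0387% of all genes tested did. Pik3ip1 there had p = 0.00629, q = 1, a relative amplitude of 46.1%, a peak at ZT12.5 and a highest time mean (587, ZT14) that was 2.93 times the lowest (200.5, ZT2).

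The call of Pik3ip1 rests on a lenient threshold. Its p-value stayed between 0.000543 and 0.00573 when each control mouse was left out in turn, but its q value was over 0.6 in all 12 of those cases and when all genes with a read were tested (0.782). A 24 h cosine and sine fitted with edgeR gave Pik3ip1 p = 6.2e-05 and an adjusted p of 0.0581 in controls, and 0.00011 with an adjusted p of 0.161 in mutants. With the series of library numbers added to that fit, an alternative chosen after the data were seen, the adjusted p-values of Pik3ip1 were 0.0215 in controls and 0.0101 in mutants.

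The rhythm of Pik3ip1 did not differ between genotypes past the threshold: the edgeR interaction of genotype with the cosine and sine had p = 0.0735 and an adjusted p of 1.00. In that test 0 of the 9 genes passed with adjustment, as did 0% of all genes, and 0 of the 9 had an unadjusted p-value under 0.05, against 4.26% of all genes. The lowest of the other 8 p-values was that of Cpt1a (0.0781). Without adjustment, Cpt1a was under 0.05 in 8 of 38 alternatives, down to p = 0.00586 with astrocyte genes as a covariate, and Pik3ip1 in 4 of 38, down to 0.025 without 1 of the ZT14 mutants. Over all 24 libraries, the genes whose log2 levels correlated most closely with Pik3ip1 were Slc7a5, the large amino acid transporter subunit of the blood-brain barrier (r = 0.93), Eftud2, a spliceosome GTPase (r = 0.93), and Zbtb16, a transcription factor induced by glucocorticoids (r = 0.87), of 9895 genes compared. These libraries share their times of day and depth, so the correlations are a description, and Pik3ip1 was added to the genes compared in this way after its values were seen. The means of Slc7a5 peaked at ZT14 in mutants with 9198 reads and were lowest at ZT22 with 4496. In controls they peaked at ZT10 with 8671 reads and were lowest at ZT22 with 4622.5.

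**Figure D3:**
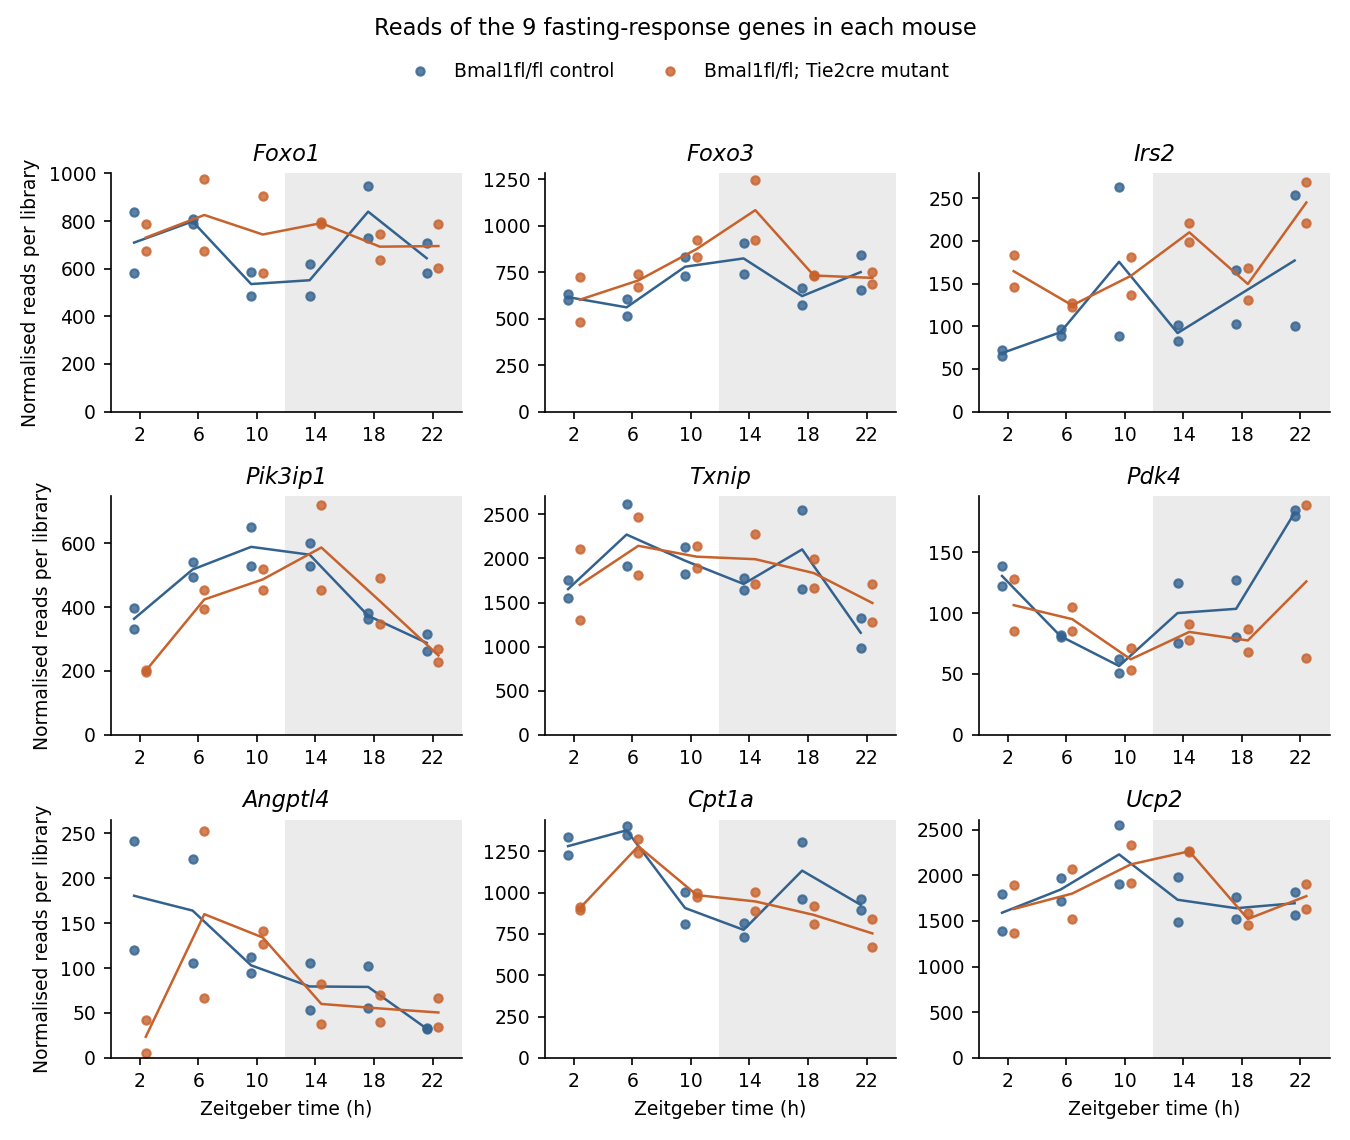
Normalised reads of each of the 9 genes (y axis, from 0) against zeitgeber time in hours (x axis; dark phase shaded), with a point for each mouse and lines through the means of 2 mice, controls in blue and mutants in orange, set apart by 0.8 h for sight. Pik3ip1 is high around ZT10 to ZT14 in both genotypes, Pdk4 of controls is lowest at ZT10 and highest at ZT22, and Angptl4 of mutants is low at ZT2.

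Without adjustment, 2 of the 9 genes in controls (Pik3ip1 and Pdk4) had meta2d p-values under 0.05, and 2.43% of all genes tested did. In mutants 3 of the 9 (Pik3ip1, Foxo3 and Cpt1a) did, and 2.27% of all genes. Of 19 alternatives in mutants, Pik3ip1 was under 0.05 in 19, Foxo3 in 14 (p = 0.133 without 1 of the ZT2 mutants) and Cpt1a in 8 (p = 0.182 without 1 of the ZT6 mutants). Pdk4 (ENSMUSG00000019577, chromosome 6 from 5483351 to 5496309, minus strand) encodes the kinase that shuts off pyruvate dehydrogenase, so that glucose is spared and fatty acids are burnt, and it is a target of both FOXO and PPAR factors. Controls had 139 and 122 reads (ZT2), 80 and 82 (ZT6), 62 and 51 (ZT10), 125 and 75 (ZT14), 80 and 127 (ZT18) and 180 and 185 (ZT22). Mutants had 85 and 128 reads (ZT2), 85 and 105 (ZT6), 71 and 53 (ZT10), 91 and 78 (ZT14), 87 and 68 (ZT18) and 189 and 63 (ZT22). Both ZT22 controls were above every other control, and of the mutants at ZT22 1 was at that level and 1 was among the lowest.

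In controls Pdk4 had a relative amplitude of 46.7%, a peak at ZT22.2, p = 0.00405 and q = 0.859, and the ZT22 mean (182.5 reads) was 3.23 times the ZT10 mean (56.5). Of 4 markers of choroid plexus and ependyma, 3 had fitted control peaks near the same time (Ttr, the transthyretin of the choroid plexus, at ZT22.2 with p = 1.00) and Foxj1 peaked at ZT1.27, and 1 ZT22 control library held 66854 of their summed reads, against 2961 to 12917 in the other controls. Without that library Pdk4 had p = 0.0251 in controls and a light over dark log2 fold change of -0.60, and the part of choroid plexus cells in the rhythm was not otherwise tested. In mutants Pdk4 had p = 0.994 with a relative amplitude of 27.04%. The difference in rhythm between genotypes for Pdk4 had p = 0.329 (edgeR), so the unequal p-values do not show that the rhythms differed. That edgeR p-value ran from 0.0761 to 0.504 when 1 mouse was left out, both ends without a ZT22 mutant. The genotype log2 fold change of Pdk4 was -0.19 (SE 0.18, adjusted p = 0.898), with means of 109 ± 44.3 reads in controls and 91.9 ± 36.4 in mutants (SD, n = 12 each). It ran from -0.27 to -0.10 when 1 mouse was left out, and from -0.29 with red blood cell genes as a covariate to -0.0673 in the ZT6 and ZT18 libraries alone.

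The third comparison set the 3 light-phase times against the 3 dark-phase times within each genotype. In controls 0 of the 9 genes had an adjusted p-value under 0.05 (edgeR), and 0.0323% of all genes tested did. Without adjustment 3 of the 9 (Angptl4, Pdk4 and Cpt1a) had p-values under 0.05, against 7.63% of all genes. In mutants 0 of the 9 passed with adjustment, as did 0% of all genes, and 1 of the 9 (Cpt1a) had an unadjusted p-value under 0.05, against 6.53% of all genes. The difference of this contrast between genotypes passed with adjustment for 0 of the 9 and for 0% of all genes, and for 1 of the 9 (Pik3ip1) it had a p-value under 0.05 without adjustment, against 7.18% of all genes. For Pik3ip1 the light over dark log2 fold change was 0.24 in controls and -0.19 in mutants, and their difference was -0.42 (SE 0.20, edgeR, unadjusted p = 0.0398, adjusted p = 0.672). Without the ZT14 mutant with 721 reads, the Pik3ip1 value in mutants was -0.0539 and the difference -0.29.

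Angptl4 (ENSMUSG00000002289, chromosome 17 from 33773750 to 33781830, minus strand) encodes a secreted inhibitor of lipoprotein lipase that PPAR factors induce in fasting. Controls had 241 and 120 reads (ZT2), 106 and 222 (ZT6), 94 and 112 (ZT10), 106 and 53 (ZT14), 56 and 102 (ZT18) and 33 and 32 (ZT22). Mutants had 5 and 42 reads (ZT2), 67 and 253 (ZT6), 127 and 141 (ZT10), 38 and 82 (ZT14), 40 and 70 (ZT18) and 67 and 34 (ZT22). The light-phase controls had 94 to 241 reads (median 116) and the dark-phase controls 32 to 106 (median 54.5).

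In controls the light over dark log2 fold change of Angptl4 was 1.24 (SE 0.39, edgeR, unadjusted p = 0.00379, adjusted p = 0.394), a level 2.37 times that of the dark phase. When all genes with a read were kept in the test, its adjusted p was 0.0216, while in the other 29 alternatives, those leaving out 1 mouse included, it was over 0.05. In mutants the value was 0.52 (SE 0.39, unadjusted p = 0.197) and it turned to -0.20 without the ZT2 mutant with 42 reads, which leaves the mouse with 5 reads as the only one at that time. Without the ZT6 and ZT18 libraries the Angptl4 value in mutants was 0.0017. The difference between genotypes was -0.72 (SE 0.55, p = 0.203), with -1.44 without the ZT2 mutant with 42 reads and -0.45 without the one with 5. The genotype log2 fold change of Angptl4 was -0.42 (SE 0.33, adjusted p = 0.866) and ranged from -0.78 with red blood cell genes as a covariate (unadjusted p = 0.0276) to -0.11 once the i5 index entered the fit. Leaving out 1 mouse gave -0.60 to -0.20. All 5 red blood cell genes had genotype values below 0 (median -0.34), with 3 of the 5 under an unadjusted p of 0.05, and their summed reads were 2244 to 9014 in controls (median 4244) and 1492 to 7008 in mutants (median 3375.5). All 7 oligodendrocyte genes were below 0 too (median -0.46, 3 of the 7 under 0.05), and the Angptl4 value was -0.48 with them as a covariate. The part of either cell type in the genotype value was not otherwise tested. Angptl4 had the largest spread between mice of the 9 genes, with coefficients of variation of 62.2% in controls and 82.8% in mutants.

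Cpt1a (ENSMUSG00000024900, chromosome 19 from 3322334 to 3385733, plus strand), the rate-limiting step of mitochondrial fatty acid oxidation and a PPAR target, had 808 to 1406 reads in the light phase of controls (median 1282) and 734 to 1305 in the dark phase (median 926.5). In mutants it had 898 to 1323 in the light phase (median 985.5) and 669 to 1003 in the dark phase (median 864.5). The light over dark log2 fold change of Cpt1a was 0.27 in controls (SE 0.10, edgeR, unadjusted p = 0.0127, adjusted p = 0.540) and 0.30 in mutants (SE 0.10, unadjusted p = 0.00704, adjusted p = 0.5996). In mutants all 7 astrocyte markers had light over dark values above 0 (median 0.21), 2 of the 7 with an unadjusted p under 0.05 (Slc1a2, 0.40, and Aqp4, 0.51), and they summed to 4591 to 20825 reads in the light phase (median 12021) and 4777 to 12699 in the dark phase (median 10603). The part of astrocytes in the mutant value was not tested. Without the ZT6 and ZT18 libraries the mutant value was 0.14 (p = 0.292). By meta2d Cpt1a had p = 0.376 in controls and 0.0406 in mutants, where the peak was at ZT7.66. The genotype log2 fold change of Cpt1a was -0.15 (SE 0.08, adjusted p = 0.774), and both mutants were below both controls at 4 of the 6 times and above them at 1. Over the tested genes, 7.12% had both mutants below both controls at 3 or more times, and the share at 4 or more was not counted.

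In the light against dark comparison of Pdk4, controls had a log2 fold change of -0.61 (SE 0.27, edgeR, unadjusted p = 0.0306, adjusted p = 0.631), opposite in sign to Angptl4 and Cpt1a. Mutants had -0.13 (SE 0.27, p = 0.628), which turned to 0.20 without the ZT22 mutant with 189 reads. The fitted peaks in controls were at ZT22.2 for Pdk4, ZT5.41 for Angptl4 and ZT3.13 for Cpt1a. Of these genes Pdk4 alone had a meta2d p-value under 0.05, and whether the peak times differ was not tested. Oligodendrocyte markers summed to 2805 to 12791 reads in light-phase controls (median 6090) and 3699 to 18000 in dark-phase controls (median 9332.5), and 4 of the 7 had p-values under 0.05 without adjustment in that contrast, 3 of them lower in the light phase. Choroid plexus and ependyma markers summed to 2961 to 10567 reads in light-phase controls (median 6712) and 3245 to 66854 in dark-phase controls (median 8604), with 3 of the 4 below 0 in that contrast (median -0.65) and Ttr at -0.83 (p = 0.0154). Red blood cell genes summed to 2244 to 5131 reads in the light phase (median 3872) and 2431 to 9014 in the dark phase (median 4623), with 5 of the 5 below 0 (median -0.40) and 1 of the 5 under an unadjusted p of 0.05 (Hbb-bs, -0.51, p = 0.0224). The part of these cells in the light against dark values was not tested. Across all 24 libraries, the genes most closely correlated with Pdk4 were Fam102a, Ccdc88c and Dnajc15 (r = 0.69 each) and with Angptl4 were Enc1 (r = 0.78), the P450 reductase Por (0.74) and Rnf144b (0.70).

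Foxo1 and Foxo3 encode the FOXO factors themselves, whose activity is set mainly by phosphorylation and cannot be read from their RNA. Foxo1 (ENSMUSG00000044167, chromosome 3 from 52268336 to 52353221) had 485 to 949 reads in controls (median 662) and 581 to 976 in mutants (median 766.5), with a genotype log2 fold change of 0.15 (SE 0.10, edgeR, adjusted p = 0.833). Its meta2d p-values were 1.00 in both genotypes. Foxo3 (ENSMUSG00000048756, chromosome 10 from 42181841 to 42276755) had 513 to 909 reads in controls (median 661.5) and 480 to 1243 in mutants (median 736.5). Its genotype log2 fold change was 0.17 (SE 0.08, edgeR, unadjusted p = 0.0495, adjusted p = 0.718). The Foxo3 value was 0.0966 without the ZT6 and ZT18 libraries and 0.31 with only those. Both mutants were above both controls in Foxo3 at 3 of the 6 times, and 7.81% of all genes tested had this at 3 or more. In mutants Foxo3 had a meta2d p-value of 0.0262 (q = 1) and a peak at ZT13.3, with a ZT14 mean of 1083 reads against 601.5 at ZT2, and in controls p = 0.791 with a ZT14 mean of 823.5. The difference in rhythm of Foxo3 between genotypes had p = 0.475.

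Txnip (ENSMUSG00000038393, chromosome 3 from 96557957 to 96561883) and Ucp2 (ENSMUSG00000033685, chromosome 7 from 100493337 to 100502020) gave the smallest genotype values. Txnip had 985 to 2622 reads in controls (median 1766) and 1279 to 2470 in mutants (median 1855.5), and its log2 fold change was 0.06 (SE 0.09, adjusted p = 0.956). The lowest time mean of Txnip was at ZT22 in both genotypes, 1157 reads in controls and 1495 in mutants, and the highest at ZT6, 2271 and 2143.5, with meta2d p-values of 0.336 and 0.635. Ucp2 had 1387 to 2551 reads in controls (median 1775.5) and 1366 to 2326 in mutants (median 1901.5), with a log2 fold change of 0.04 (SE 0.08, adjusted p = 0.965) and meta2d p-values of 0.973 and 0.548. The genes whose log2 levels ran closest to Txnip over the 24 libraries were Chst15 (r = 0.78), Rnf144b (0.77) and Cyp2d22 (0.71), and those closest to Irs2 were Sat1 (0.73), Tsc22d2 (0.71) and Tnfrsf11a (0.70). Rnf144b was thus near both Txnip and Angptl4, which correlated with each other at r = 0.55.

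The other genes of the same pathways were read from 7 lists, chosen by function. Of 28 FOXO factors and targets, 23 were tested, and 1, Cdkn1a, differed between genotypes with an adjusted p-value under 0.05 (edgeR). Cdkn1a, the cell cycle inhibitor p21, had 634 ± 448 reads in controls and 1169 ± 496 in mutants (SD, n = 12 each), a log2 fold change of 0.99 (adjusted p = 0.00447). The immediate-early genes moved in the same direction, with the values given beside Irs2, and their part in the Cdkn1a value was not tested. The median over the 23 was 0.05, and Sod2, the mitochondrial superoxide dismutase, was the other one with an unadjusted p-value under 0.05 (-0.39, p = 0.00275). FOXO factors are known to switch on both Cdkn1a and Sod2, and the part of FOXO activity in either value was not tested. Of 33 PPAR targets 26 were tested, 0 passed, and their median log2 fold change was -0.12, with 7 of the 26 above 0, as were 7844 of the 15493 genes tested. Genes of other cell types had lower values in mutants too: 0 of 7 astrocyte genes were above 0 (median -0.21, 2 of the 7 with an unadjusted p under 0.05). The same held for 0 of 7 oligodendrocyte genes (median -0.46), 0 of 5 red blood cell genes (median -0.34) and 1 of 7 neuron genes (median -0.11). The part of these cell types in the list's values was not tested. Lpl, the lipoprotein lipase that Angptl4 inhibits, had 45.2 ± 24.3 reads in controls and 98.1 ± 44.6 in mutants (SD, n = 12 each), with a log2 fold change of 1.190 (unadjusted p = 0.000684, adjusted p = 0.126).

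**Figure D4:**
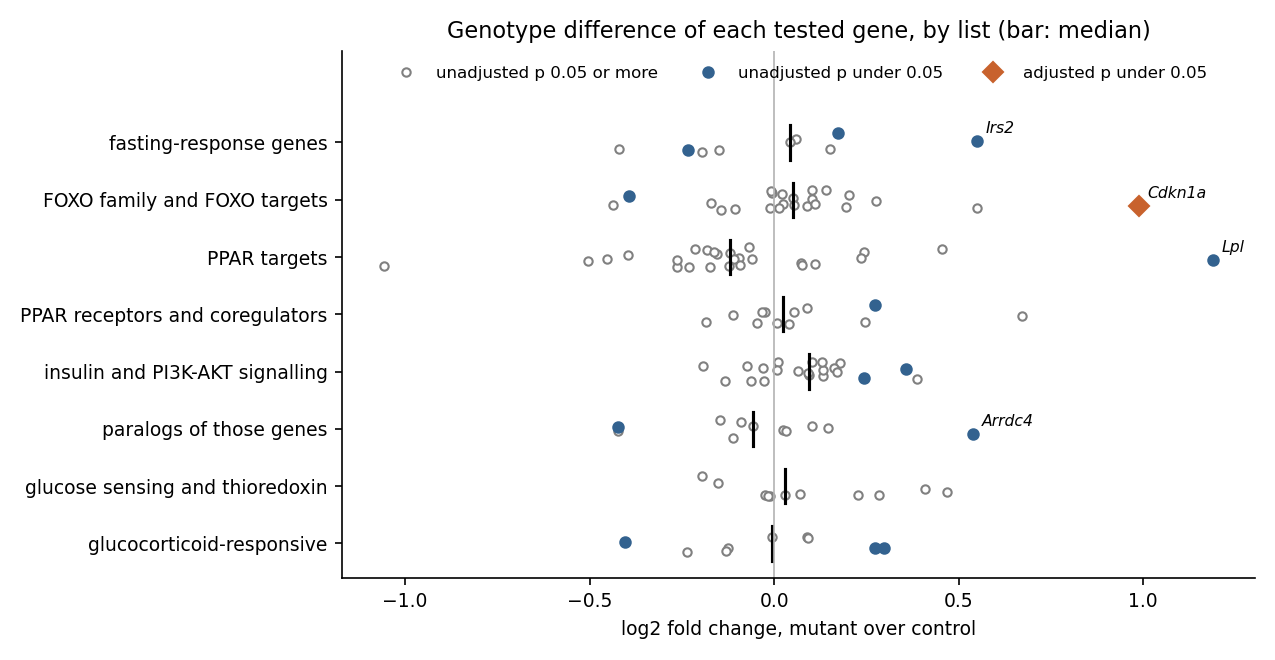
The log2 fold change of mutants over controls (x axis) for each tested gene of the 9 and of 7 lists (y axis), with the list's median as a bar; filled circles have an unadjusted p-value under 0.05 and the diamond an adjusted one. Cdkn1a (0.99) is the only diamond, and Lpl (1.190) lies farthest to the right.

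Of the 14 PPAR receptors and coregulators 12 were tested and 0 passed; Rxra, the common partner of PPAR receptors, had a value of 0.27 (unadjusted p = 0.0441) and Ppara 0.67 at a low level of 23.0 ± 18.9 reads in controls (p = 0.152). Ppard was at 495 ± 124 reads in controls and 477 ± 89.4 in mutants (SD, n = 12 each), and Pparg did not pass the filter. All 21 genes of insulin and PI3K-AKT signalling were tested and 0 passed, with a median of 0.10 and 15 of the 21 above 0. Above 0 for genotype were also 8 of 10 endothelial genes (median 0.0826, 3 of the 10 higher with an unadjusted p under 0.05), 7 of 8 microglial genes (median 0.0752) and 8 of 8 immediate-early genes (median 0.30, 5 of the 8 under 0.05), and their part in the values of the insulin list was not tested. The phosphatase Inpp5d (0.36, unadjusted p = 0.00276), which is best known from blood cells, and the kinase Sgk1 (0.24, p = 0.00444), a relative of AKT, had the lowest p-values. Sgk1 also had light over dark values of -0.35 in controls (p = 0.00756) and -0.30 in mutants (p = 0.0209). Of 17 paralogs of the 9 genes 11 were tested and 0 passed; Arrdc4, the closest relative of Txnip, had 0.54 (unadjusted p = 0.0435) and Angptl2 -0.42 (p = 0.044). All 11 genes of glucose sensing and thioredoxin were tested, and 0 had an unadjusted p-value under 0.05 for genotype.

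Corticosterone rises each day before the active phase. All 9 glucocorticoid-responsive genes were tested, and 0 differed between genotypes past the adjusted threshold. Zbtb16 had a meta2d p-value of 0.000826 and q of 0.481 in controls and p = 0.000673 and q of 0.721 in mutants, and in controls it was the only gene of the 7 lists that passed q under 0.6. In the light against dark comparisons 0 genes of the 7 lists passed with adjustment in either genotype. In controls the lowest unadjusted p-values of this contrast in the 7 lists were those of the FOXO targets Sesn3 (-0.50, p = 0.00211) and Cdkn1a (-0.62, p = 0.00515). In mutants Sesn3 had 0.17 (p = 0.254), a difference of 0.67 (unadjusted p = 0.00327, adjusted p = 0.498), and Cdkn1a had -0.43 (p = 0.0393). In the difference between genotypes of this contrast, 7 of 7 astrocyte genes were above 0 (median 0.41, 2 of the 7 with an unadjusted p under 0.05), 5 of 5 red blood cell genes (median 0.21) and 6 of 8 microglial genes (median 0.26, 2 of the 8 under 0.05), and their part in the value of Sesn3 was not tested. In mutants the lowest unadjusted p-value among the 7 lists was that of Slc2a1, the glucose transporter of the blood-brain barrier (-0.35, p = 0.0041, adjusted p = 0.558), followed by Akt1 (-0.31, p = 0.0111), with -0.0349 and 0.0832 in controls. Of 10 endothelial markers, 2 were above 0 in that contrast of mutants (median -0.07), and 2 were lower with an unadjusted p under 0.05. The part of endothelial content in the Slc2a1 value was not tested.

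The leading genes of each list in the other contrasts had these light over dark values, none of which passed with adjustment. Among FOXO targets in mutants, Tnfsf10, the death ligand TRAIL, had 0.30 (unadjusted p = 0.0222) and Cited2 0.49 (p = 0.0238). Among PPAR targets in controls, the carnitine carrier Slc25a20 had 0.54 (p = 0.0714) and the acyl-CoA dehydrogenase Acadvl 0.33 (p = 0.0755), the same sign as Cpt1a, and in mutants Acadvl had -0.29 (p = 0.11) and the low gene Acot1 1.38 (p = 0.134). The coregulator Lpin1 had 0.32 in controls (p = 0.0755) and 0.35 in mutants (p = 0.0535), followed by Ncoa1 in controls (-0.15, p = 0.155) and Med1 in mutants (-0.13, p = 0.225). Pik3r1, the regulatory subunit of PI3K, had -0.26 in controls (p = 0.0211) and 0.13 in mutants (p = 0.216), a difference of 0.39 (unadjusted p = 0.0141, adjusted p = 0.572).

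Among paralogs, Pdk3 (0.29, p = 0.255) and Arrdc3 (-0.23, p = 0.34) led in controls and Pdk1 (0.39, p = 0.12) and Angptl2 (0.33, p = 0.234) in mutants. Of the glucose-sensing genes, Txnrd1, the thioredoxin reductase, had 0.34 in controls (p = 0.0914), and Mlxip, a glucose-responsive factor that drives Txnip, had -0.49 in controls (p = 0.233) and 0.85 in mutants (p = 0.0474). Between genotypes, Txn2 (-0.19, p = 0.105) and Mlxipl (0.47, p = 0.175) had the lowest p-values of that list. Of the glucocorticoid-responsive genes, Tsc22d3 (0.27, p = 0.00534) and the metallothionein Mt1 (0.30, p = 0.00651) had the lowest p-values between genotypes. Mt1 (-0.27, p = 0.0527) and Fkbp5 (-0.39, p = 0.127) led the light against dark contrast of controls, and Zbtb16 (-0.62, p = 0.022) and Tsc22d3 (-0.21, p = 0.107) that of mutants.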

How the data were processed

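RNA was measured in 24 libraries, 12 per genotype, each from 1 mouse. The authors used STAR 2.5.3a for alignment to GRCm38, merged 3 lanes with SAMtools 1.3.1, counted reads on Ensembl genes and normalised them with PORT, and deposited whole-number counts per gene. Because PORT brought the libraries to a common depth, the original depth and its counting error are not in these values. Groups came from the genotype and time labels. The filter of the study's methods (5 reads in 6 mice of a genotype) left 15493 genes. Genotype, rhythm difference and light against dark phase were compared by quasi-likelihood after TMM scaling (R 4.3.3 and edgeR 4.0.16), with p-values adjusted over all of them by Benjamini and Hochberg's method. Rhythms were tested with meta2d, which merges the p-values of Lomb-Scargle and JTK_CYCLE, in a version written for Python 3.11.15 (pandas 2.3.3, SciPy 1.17.1, NumPy 2.4.6). DESeq2 1.42.0, another scaling, other filters, a replicate block, the i5 index, marker genes of other cells, a cosinor and each mouse left out were alternatives. Coordinates and exon lengths came from a GENCODE annotation of GRCm38. Levels per kb divide the reads by the union of exons. Correlations used log2 of TMM-scaled CPM plus 1, over genes with a mean of 50 reads or more.

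The genes and lists were chosen with earlier results of these data known. Named beside the 9 genes are those that passed a test in each pathway list, the 2 with the smallest unadjusted p-value per list and contrast (1 of which is not reported here), and the 3 closest by correlation to Pdk4, Txnip, Angptl4 and Irs2. Nr1d1, Arntl, Slc7a5, Eftud2, Ppard and Pparg were named after their values were seen. The steps were run on simulated counts with planted effects, as a check of the code. The simulated spread between mice was set below the one fitted here, so the power in these data was not tested. Figures were drawn with matplotlib 3.10.9.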

Additional observations from a re-analysis of the deposited data

How the results depend on the processing

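No gene of the 9 passed the adjusted threshold for genotype or for a rhythm difference under any alternative run, and none did for the light against dark contrast in mutants. In the light against dark contrast of controls, 1 passed (Angptl4) when all genes with a read were tested. For rhythm in controls the count of 1 became 2 at an unadjusted p-value under 0.05, 0 when all genes with a read were tested, 0 with the edgeR cosinor and 0 to 0 without each mouse in turn, and for rhythm in mutants the count of 0 became 3 at an unadjusted p-value under 0.05 and 1 with the edgeR cosinor and library series. All-gene counts moved more: the 42 genotype calls ranged from 3 (ZT6 and ZT18 libraries only) to 141 (all genes with a read), with 99 by DESeq2. Calls over all genes ranged from 0 to 101 for light against dark in controls (5 as reported), 0 to 62 in mutants (0), 0 to 47 for its difference (0) and 0 to 52 for the rhythm difference (0), each highest with all genes with a read, and from 0 to 377 for rhythm in controls (48) and 0 to 351 in mutants (6), highest at an unadjusted p-value under 0.05.

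Some signs turned, most of them of values near 0 (Angptl4 in mutants, 0.52 as reported, was not), and the cause was not tested. For genotype, Txnip was -0.0285 with red blood cell genes as a covariate, and with the ZT6 and ZT18 libraries only Txnip was -0.11, Foxo1 -0.0904 and Ucp2 -0.0470. For light over dark, Foxo1 in controls was 0.0329 without further scaling; in mutants Ucp2 was -0.0066 without further scaling, -0.0091 with all genes with a read and -0.13 without the ZT6 and ZT18 libraries, where Foxo1 was -0.0241. Without each mouse in turn, Foxo1 in controls ranged from -0.14 to 0.0321, and in mutants Foxo1 from -0.0439 to 0.18, Ucp2 from -0.0684 to 0.0739, Pdk4 from -0.32 to 0.20 and Angptl4 from -0.20 to 0.80. Genotype values left out in the same way kept their sign but moved, Foxo1 from 0.0880 to 0.19, Txnip from 0.0167 to 0.11 and Ucp2 from 0.0051 to 0.0745.

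Replicate numbers mark different mice, and the correlations of same-numbered mice ran from -0.0135 to 0.0918, so these numbers give no pairing. The study states that the mice came from independent experiments. The labels used here do not assign mice to them, so a block by experiment was not tested. With the replicate block, genotype calls were 45, the value of Irs2 was 0.58, and 0 of the 9 genes passed. The deposited totals do not hold the original depth, so the counting error of low genes such as Angptl4 and Pdk4 cannot be judged from them.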
